A study of Mus musculus with 6 samples.

Results

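The type I interferon receptor, its kinases, the STAT and IRF transcription factors and the feedback inhibitor Socs1 were examined as 9 genes among the 54886 genes measured in GC-2spd cells after PM2.5 exposure. The genes were taken by symbol: Ifnar1 and Ifnar2 (receptor chains), Jak1 and Tyk2 (kinases), Stat2, Irf9, Irf7 and Irf1 (transcription factors) and Socs1 (inhibitor). All 9 symbols matched 1 Ensembl gene each by the names of GENCODE M21. The genes were chosen with earlier results of these data known, so counts among them are no independent evidence of a direction. RNA was sequenced from 3 control libraries (0 μg/mL, normal culture medium, to which the study's methods add PBS, the vehicle of the particles) and 3 libraries of cells exposed to 100 μg/mL PM2.5, both collected at 48 h. GC-2spd is a mouse spermatocyte-derived line with a BALB/c background, immortalised with the SV40 large T antigen and a temperature-sensitive p53, and both groups share this origin. The labels do not say whether the 3 libraries of a group came from separate cultures, so the p-values measure only the spread between these libraries, which may be technical.

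Type I interferons bind IFNAR1 and IFNAR2 at the cell surface, which activates the kinases TYK2 and JAK1 bound to their cytoplasmic tails. The kinases phosphorylate STAT2, which acts with IRF9 in the complex ISGF3, and ISGF3 binds interferon-stimulated response elements (ISRE) in the promoters of antiviral genes. IRF7 amplifies interferon production, IRF1 is induced mainly through gamma-activated sites (GAS), which bind STAT dimers, and SOCS1 inhibits the kinases. Stat2, Irf9, Irf7, Irf1 and Socs1 are themselves interferon-inducible.

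The mRNA of 3 of the 4 transcription factors, Stat2, Irf9 and Irf7, was lower in every PM2.5 library than in every control library. Such a separation held for 6.85% of all genes tested. Against control replicates 1 and 3, the mean FPKM (fragments per kilobase of exon, scaled to the depth of the library) was 2.79-fold lower for Stat2, 2.26-fold lower for Irf9 and 3.85-fold lower for Irf7. The 3 decreases passed the test in the 5 libraries without control replicate 2, and none of them passed it over all 6 libraries. In those 5 libraries 0.707% of all genes tested passed as lower. The receptor chains, the kinases, Irf1 and Socs1 did not pass the test in either of these fits.

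Control replicate 2 stood apart from the other libraries. Mitochondrial genes held 14.5% of its reads, against 1.65% to 1.95% in the other 5. Across genes its Pearson's r with the other libraries was 0.732 to 0.779, against 0.9502 or more among the other 5. Of these, PM2.5 replicate 3 had an r of 0.972 with control replicates 1 and 3. Its r with PM2.5 replicates 1 and 2 was lower, at 0.9502 and 0.958. Between control replicates 1 and 3 r was 0.992, and between PM2.5 replicates 1 and 2 it was 0.991. The tested set was 11884 genes whose FPKM averaged 1 or more. In control replicate 2, 14.2% of them lay more than 3-fold above, and 14.9% more than 3-fold below, the mean of control replicates 1 and 3. The recovered depth was 16209352 to 18003201 reads per library. The spermatocyte markers did not bear out the label: 0 of 12 had a mean FPKM of 1 or more. Spo11, Hormad1, Dazl, Mael and Piwil1 were listed at 0 in all libraries. Summed levels were 0.475 to 2.56 FPKM in the control group and 0.0416 to 0.612 FPKM in the PM2.5 group. The 2.56 FPKM was Sycp3 alone, in control replicate 2. In control replicates 1 and 3 Sycp3 was at 0.341 and 0.395 FPKM. Of the 8 immune cell markers, Ptprc, Adgre1, Itgam and Cd3e were at 0 in all libraries and the summed level was 0.0803 to 0.157 FPKM in the control group and 0.149 to 0.163 FPKM in the PM2.5 group. For the 6 fibroblast markers the summed level was 647 to 680 FPKM in the control group and 333 to 595 FPKM in the PM2.5 group. Col1a1 and Col1a2 held most of it, and Thy1 was at or near 0. The part of these markers in the results below was not tested. Of the 6 Sertoli cell markers 1, Gata4, passed a mean of 1 FPKM, with sums of 17.3 to 19.2 and 12.1 to 23.6 FPKM. Of the 6 Leydig cell markers also 1 passed, Star, with sums of 2.01 to 2.59 and 1.74 to 1.89 FPKM.

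The stretches of 250 bases before the transcription start are shown for the interferon-inducible members other than Irf9, 4 genes. These are the regions where ISGF3 or STAT dimers would bind. They are RefSeq sequences of GRCm38.p6, written 5′ to 3′ on the strand of the gene, and capitals mark matches to the ISRE core GAAANNGAAA on either strand or to the GAS core TTCNNNGAA, which reads the same on both strands.
Stat2 (chr10:128270248-128270497, plus strand) and Irf7 (chr7:141266425-141266674, minus strand) passed the test as lower without control replicate 2, but not with 6 libraries:
Stat2: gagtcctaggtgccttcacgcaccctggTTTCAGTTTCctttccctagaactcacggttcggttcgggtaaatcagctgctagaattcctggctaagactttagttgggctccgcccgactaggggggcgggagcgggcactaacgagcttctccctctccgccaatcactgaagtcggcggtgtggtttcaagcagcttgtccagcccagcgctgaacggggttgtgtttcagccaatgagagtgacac
Irf7: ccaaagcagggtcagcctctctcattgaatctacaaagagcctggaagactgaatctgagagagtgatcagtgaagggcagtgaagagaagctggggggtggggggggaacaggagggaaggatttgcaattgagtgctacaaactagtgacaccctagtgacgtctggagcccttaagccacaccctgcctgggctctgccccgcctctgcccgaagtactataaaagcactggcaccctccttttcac
Irf1 (chr11:53769764-53770013, plus strand, the first of 2 windows) and Socs1 (chr16:10785537-10785786, minus strand) did not pass the test with 6 libraries or without control replicate 2:
Irf1: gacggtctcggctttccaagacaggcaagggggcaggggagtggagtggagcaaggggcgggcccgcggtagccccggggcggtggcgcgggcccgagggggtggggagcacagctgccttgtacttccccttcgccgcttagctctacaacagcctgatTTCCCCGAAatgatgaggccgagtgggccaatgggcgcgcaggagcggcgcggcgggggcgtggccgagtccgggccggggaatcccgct
Socs1: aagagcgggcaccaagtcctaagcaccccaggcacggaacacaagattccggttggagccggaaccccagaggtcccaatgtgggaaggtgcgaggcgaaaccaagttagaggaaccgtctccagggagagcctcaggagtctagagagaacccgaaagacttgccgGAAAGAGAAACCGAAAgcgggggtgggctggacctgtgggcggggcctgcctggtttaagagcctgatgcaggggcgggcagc

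Windows from 250 bases before the start to 50 after it were searched for all 9 genes, with 2 windows each for Irf9 and Irf1. The ISRE core was found once in Stat2, 222 to 213 bases before the start on the reverse strand, and in 2 overlapping copies in Socs1, the first 83 to 74 bases and the second 77 to 68 bases before the start. It was in none of the windows of Irf9, Irf7, Irf1, Jak1, Tyk2, Ifnar1 and Ifnar2, and in 3.44% of the 32851 windows of all genes. The GAS core was found in Irf1 (90 to 82 bases before the start), in Ifnar2 (214 to 206 bases before it) and across the start of Ifnar1, and in 8.30% of all windows. No GAS match overlapped an ISRE match in these windows. Of the genes called lower without control replicate 2, Stat2 had a match to the ISRE core, and Irf7 and Irf9 had no match to either core. Socs1, which was not called there, had 2. Whether the matches bear on the decreases was not tested. A match in letters is not a binding site, and a site that departs from these letters or lies outside the window was not searched for.

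Receptor chains. Ifnar1 (chromosome 16, 91485238 to 91507441) encodes the chain that binds TYK2. Its FPKM was 15.5, 15.1 and 15.2 in control replicates 1, 2 and 3 and 13.8, 15.8 and 15.8 in PM2.5 replicates 1, 2 and 3. The groups overlapped, and control replicate 2 was at 0.982 times the mean of the other controls. The log2 fold change on the log2(FPKM + 1) scale was -0.015 (95% interval -0.44 to 0.41, adjusted p = 0.977 from limma), and -0.023 (-0.28 to 0.23) without control replicate 2.

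Ifnar2 (chromosome 16, 91372783 to 91405589) encodes the chain that binds JAK1. The level was 6.07, 4.79 and 6.78 FPKM among controls 1, 2 and 3 and 7.03, 7.04 and 7.21 FPKM among exposed replicates 1, 2 and 3. The exposed libraries all exceeded the controls by a narrow margin, and such a separation held for 8.35% of all genes tested with 6 libraries and for 17.7% without control replicate 2. The log2 fold change was 0.24 (95% interval -0.21 to 0.70, adjusted p = 0.875 from limma) and 0.13 (-0.11 to 0.36, adjusted p = 0.547) without control replicate 2. The interval without that library leaves room for a decrease of 0.11 at most on the log2 scale. Of the 31-base sequences of Ifnar2, 8.50% also occur in other genes, most of them in Gm21970, which overlaps it on the same strand.

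Kinases. Jak1 (chromosome 4, 101152367 to 101265282) had the highest FPKM of the 9 genes in the PM2.5 group. Controls 1, 2 and 3 measured 53.1, 9.96 and 51.0 FPKM, whereas exposed cells measured 39.3, 41.8 and 46.5 FPKM. Control replicate 2 was at 0.191 times the mean of the other controls, below every PM2.5 library, while the other controls were above them all. The sign of the change therefore depended on that library: the log2 fold change was 0.47 (95% interval -1.09 to 2.03) with 6 libraries and -0.29 (-0.56 to -0.014) without it, with adjusted p-values of 0.875 and 0.302 from limma. Without control replicate 2 and PM2.5 replicate 3, which leaves 2 libraries a group, Jak1 was called at -0.35 (adjusted p = 0.00434 from limma). That fit called 5602 of the 11884 genes tested. Tyk2 (chromosome 9, 21104068 to 21131243) measured 3.56, 5.84 and 2.88 FPKM in controls 1, 2 and 3 and 3.75, 3.47 and 2.79 FPKM in exposed cells. The groups overlapped, and the log2 fold change was -0.20 (95% interval -0.83 to 0.43) with 6 libraries and 0.038 (-0.33 to 0.41) without control replicate 2. Neither adjusted p-value from limma passed, at 0.875 and 0.916. Of the 31-base sequences of Tyk2, 8.78% are shared with other genes, mainly with 1700084C06Rik on the opposite strand.

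**Figure D1:**
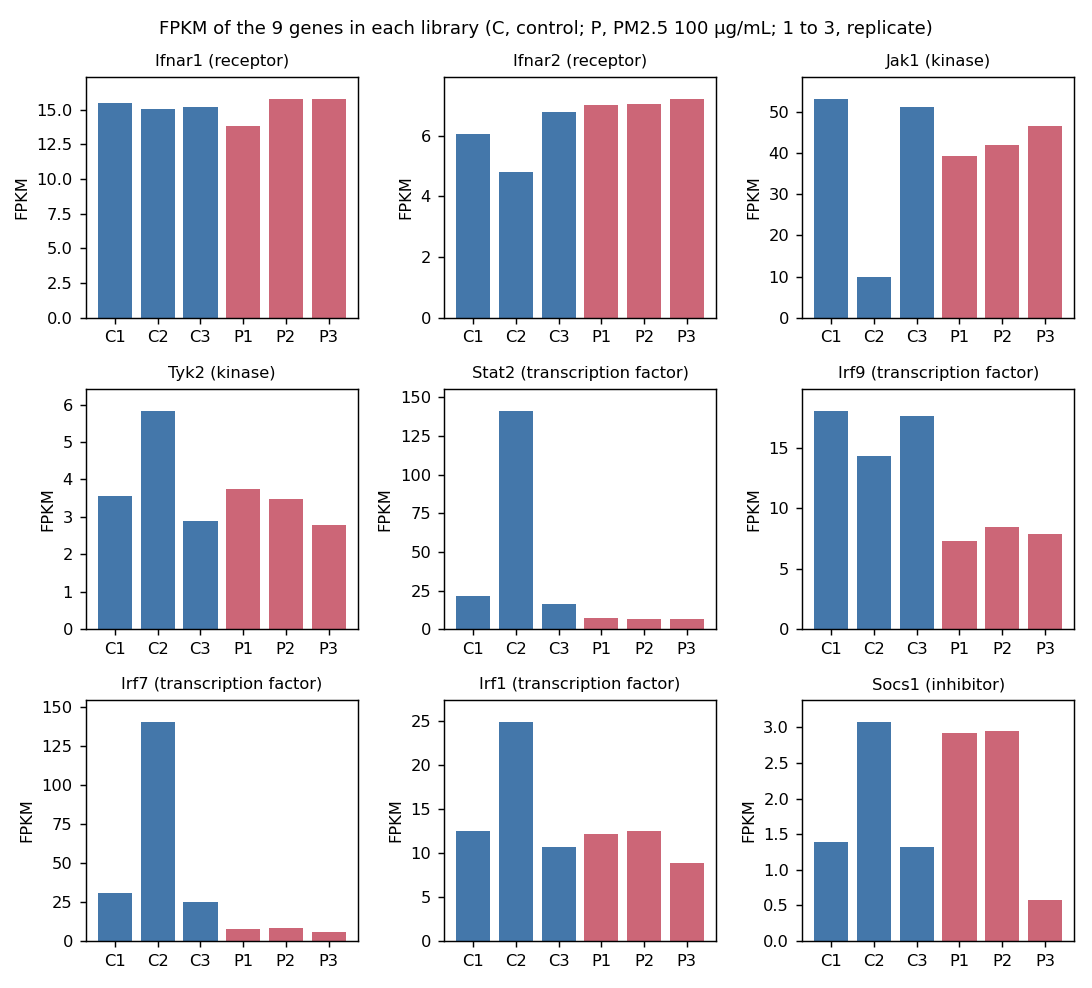
FPKM (vertical axes, linear from 0) of the 9 genes in each library, with 1 bar per library (C, control; P, PM2.5 at 100 μg/mL; 1 to 3, replicate). The PM2.5 bars of Stat2, Irf9 and Irf7 lie under all 3 control bars, C2 reaches 141 FPKM for Stat2 and 140 FPKM for Irf7, and the Ifnar1 bars lie between 13.8 and 15.8 FPKM.

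Transcription factors. Stat2 (chromosome 10, 128270559 to 128292849) encodes the STAT subunit of ISGF3 that binds IRF9. Its FPKM was 21.5, 141 and 16.3 in control replicates 1, 2 and 3, from 2367, 10865 and 1741 reads. In PM2.5 replicates 1, 2 and 3 it was 7.35, 6.55 and 6.43, from 778, 689 and 689 reads. Control replicate 2 was 7.48 times the mean of the other controls, and the groups did not overlap with or without it. In limma the difference on the log2 scale was -2.30 ± 0.79 (standard error) with 6 libraries, at an adjusted p of 0.875. Without control replicate 2 it was -1.35 ± 0.15, at an adjusted p of 0.0349.

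Irf9 (chromosome 14, 55603571 to 55610030) encodes the DNA-binding subunit of ISGF3. The level was 18.0, 14.3 and 17.6 FPKM among controls 1, 2 and 3 and 7.26, 8.48 and 7.89 FPKM among exposed replicates 1, 2 and 3. Control replicate 2 was close to its group here, at 0.802 times the mean of the other controls. The change was alike in both fits, at -0.99 ± 0.19 (log2 fold change ± standard error) over 6 libraries and -1.09 ± 0.10 without control replicate 2. The adjusted p-value from limma was 0.372 in the first and 0.0206 in the second. Irf9 overlaps Rnf31 on the same strand, and 4.82% of its 31-base sequences are shared with other genes.

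Irf7 (chromosome 7, 141262706 to 141266481) encodes the factor that drives the later wave of interferon alpha genes. Controls 1, 2 and 3 measured 31.04, 140 and 24.8 FPKM, from 2175, 6880 and 1690 reads. Exposed replicates 1, 2 and 3 measured 7.71, 8.39 and 5.69 FPKM, from 520, 562 and 388 reads. Control replicate 2 was 5.03 times the mean of the other controls and the groups did not overlap. With 6 libraries the log2 fold change of -2.58 ± 0.66 (adjusted p = 0.711 in limma) was the sixth most negative of all genes tested. Without control replicate 2 it was -1.81 ± 0.19 (adjusted p = 0.0316 in limma), which ranked 21 among the 84 genes called lower, with Stat2 at 42 and Irf9 at 61.

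Irf1 (chromosome 11, 53770014 to 53778374) encodes the founding member of the IRF family. Controls 1, 2 and 3 measured 12.5, 24.9 and 10.6 FPKM, whereas exposed cells measured 12.1, 12.4 and 8.91 FPKM. The groups overlapped, and control replicate 2 was 2.15 times the mean of the other controls. The log2 fold change was -0.41 (95% interval -1.26 to 0.45) with 6 libraries and -0.057 (-0.50 to 0.39) without control replicate 2, with adjusted p-values of 0.875 and 0.894 from limma. A decrease as large as those of Stat2, Irf9 or Irf7 in the 5 libraries lies outside the second interval.

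Inhibitor. Socs1 (chromosome 16, 10782240 to 10785536) had the lowest FPKM of the 9 genes, with 30 to 152 reads per library. The level was 1.39, 3.08 and 1.32 FPKM among controls 1, 2 and 3 and 2.93, 2.95 and 0.571 FPKM among exposed replicates 1, 2 and 3. PM2.5 replicates 1 and 2 were above control replicates 1 and 3, while PM2.5 replicate 3 was below every other library. The spread was therefore wide, with a log2 fold change of 0.037 (95% interval -1.05 to 1.12) over 6 libraries and 0.30 (-0.85 to 1.45) without control replicate 2. None of the adjusted p-values passed, at 0.978 and 0.774 from limma. In the fit with 2 libraries a group that called Jak1, Socs1 was called at 0.74 (adjusted p = 0.00217 from limma). That fit left out PM2.5 replicate 3, the library lowest for Socs1, and called 5602 of the 11884 genes tested.

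Over the 6 libraries, 0 of the 9 genes had an adjusted p-value under 0.05 in limma, where 0.0926% of all genes tested did, and 0.0589% as lower genes. Before adjustment, limma gave p-values under 0.05 to Irf9 (0.00179), Irf7 (0.00762) and Stat2 (0.0274), that is for 3 of 9 as lower genes against 1.88% of all genes, and voom on the recovered reads also gave 0 calls and 3 genes at an unadjusted p under 0.05. Without control replicate 2, Stat2, Irf9 and Irf7 were called lower, 3 of 9 against 0.707% of all genes tested (0.993% in either direction). The 9 genes were chosen with earlier results of these data known, so their shares are a description only. The PM2.5 group lay wholly under the control group for 3 of 9 genes with 6 libraries and for 4 of 9, with Jak1 added, without control replicate 2. Over all genes tested the shares were 6.85% and 19.6%. The median log2 fold change of the 9 genes was -0.20, against 0.020 for all genes tested, and -0.057 against -0.011 without control replicate 2. By role, the median with 6 libraries was 0.12 for the receptor chains, 0.14 for the kinases and -1.64 for the transcription factors. It was 0.052, -0.12 and -1.22 without control replicate 2. The kinase median covers 2 genes, and its sign turned with Jak1 (0.47 to -0.29), while Tyk2 moved the other way (-0.20 to 0.038).

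These calls rested on few libraries. When 1 more library was left out beside control replicate 2, the calls of Stat2, Irf9 and Irf7 were lost for control replicate 1, control replicate 3, PM2.5 replicate 1 and PM2.5 replicate 2, with adjusted p-values of 0.0995 to 0.446 from limma, although each log2 fold change stayed at -1.04 or below. The calls were also lost without the filter on low values, with adjusted p-values of 0.0965 (Stat2), 0.0574 (Irf9) and 0.0956 (Irf7).

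**Figure D2:**
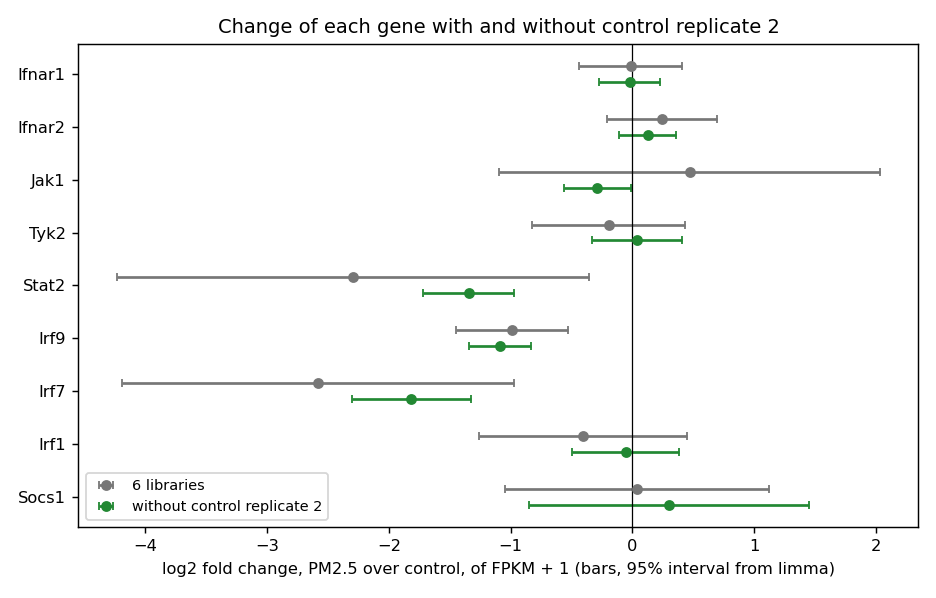
Log2 fold change of FPKM + 1, PM2.5 over control (horizontal axis), of each gene with its 95% interval from limma, over 6 libraries (grey) and without control replicate 2 (green). The green intervals of Stat2, Irf9 and Irf7 lie wholly under 0, from -2.30 to -0.83, and those of Ifnar1, Ifnar2, Tyk2, Irf1 and Socs1 include 0. Jak1 changes sign, and its green interval, -0.56 to -0.014, also lies under 0, at an adjusted p of 0.302 from limma.

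The order of the 9 genes by level differed between the groups. FPKM is given per length of all annotated exons of a gene, used or not, so an order between genes is approximate. In control replicates 1 and 3 the mean FPKM ran from Jak1 (52.0) over Irf7 (27.9), Stat2 (18.9), Irf9 (17.8), Ifnar1 (15.3), Irf1 (11.6), Ifnar2 (6.43) and Tyk2 (3.22) to Socs1 (1.35). The libraries of Stat2 and Irf9 overlapped in this order, and all other neighbours were apart. In the PM2.5 group it ran from Jak1 (42.6 ± 3.64, SD, n = 3) over Ifnar1 (15.1 ± 1.12), Irf1 (11.2 ± 1.95), Irf9 (7.88 ± 0.606), Irf7 (7.26 ± 1.41), Ifnar2 (7.09 ± 0.103), Stat2 (6.78 ± 0.497) and Tyk2 (3.34 ± 0.495) to Socs1 (2.15 ± 1.37). The neighbours Irf9 and Irf7, Irf7 and Ifnar2, Ifnar2 and Stat2, and Tyk2 and Socs1 overlapped in their libraries and did not differ beyond their spread. Irf7 and Stat2 thus stood above the receptor chain Ifnar1 in each control library and below it in each PM2.5 library.

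Other genes of the pathway were read from a list of 52 genes, of which 31 passed the filter of 1 FPKM on average. This list was also chosen with earlier results of these data known. With 6 libraries 1 of the 31 was called lower and 0 higher, and without control replicate 2 the numbers were 2 lower and 0 higher. Of all genes tested, 0.0589% and 0.707% were called lower in these fits. The median log2 fold change of the 31 was -0.081 with 6 libraries and -0.17 without control replicate 2. The 14 ligand genes, which encode the interferons themselves, were near 0. Of them 11 had 0 reads in every library, Ifna4 had 1 read in control replicate 1, and Ifnz had at most 2 reads. For Ifnb1, which encodes interferon beta, controls 1, 2 and 3 held 0, 8 and 2 reads and exposed replicates 2, 0 and 0, so that most of its reads lay in control replicate 2. At 3 reads as the detection floor, which covers counting error only, a difference in the other ligands was not detectable at this depth.

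Usp18 encodes the protease that removes ISG15 and blocks signalling at IFNAR2. Controls 1, 2 and 3 measured 36.2, 29.0 and 34.4 FPKM, whereas exposed cells measured 7.72, 8.28 and 7.93 FPKM. It was the listed gene called in both fits, with log2 fold changes of -1.92 ± 0.18 (adjusted p = 0.0426 in limma) and -2.01 ± 0.09 (adjusted p = 0.00757) without control replicate 2.

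Stat3, Stat5b and Irf2 gave smaller differences than Stat2 and did not pass the test in either fit. The FPKM of Stat3, the mediator of interleukin 6 signals, was 20.1, 9.57 and 20.3 among controls and 15.0, 14.7 and 14.6 among exposed libraries, with a log2 fold change of -0.092 (adjusted p = 0.932 from limma) with 6 libraries and -0.43 (adjusted p = 0.110) without control replicate 2. For Stat5b, which acts downstream of growth hormone, it was 18.3, 21.1 and 18.9 against 14.1, 13.0 and 12.1, with -0.54 (adjusted p = 0.875) and -0.48 (adjusted p = 0.128) in the same fits. For Irf2, a competitor of IRF1 at its sites, it was 3.12, 5.79 and 2.83 against 1.94, 1.94 and 2.25, with -0.64 (adjusted p = 0.875) and -0.38 (adjusted p = 0.191). Of the 8 listed transcription factor genes tested, 6 lay wholly lower and 1, Stat6, wholly higher in the PM2.5 group with 6 libraries, against 6.85% and 8.35% of all genes tested. Their median log2 fold change was -0.42 with 6 libraries and -0.34 without control replicate 2. Stat4, Irf4 and Irf8, which are known from blood cells, stayed at or under 0.219 FPKM. Socs2, a cytokine-induced inhibitor of growth hormone signals, had an FPKM of 2.16, 5.44 and 2.37 in controls and 1.03, 1.01 and 1.08 in exposed cells. Socs2 gave a log2 fold change of -0.68 (adjusted p = 0.0652 from limma) without control replicate 2 and -1.01 (adjusted p = 0.875) with it. The interferon gamma receptor genes Ifngr1 and Ifngr2 did not pass the test, with log2 fold changes of -0.17 and 0.075 with 6 libraries and -0.37 and 0.046 without control replicate 2.

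**Figure D3:**
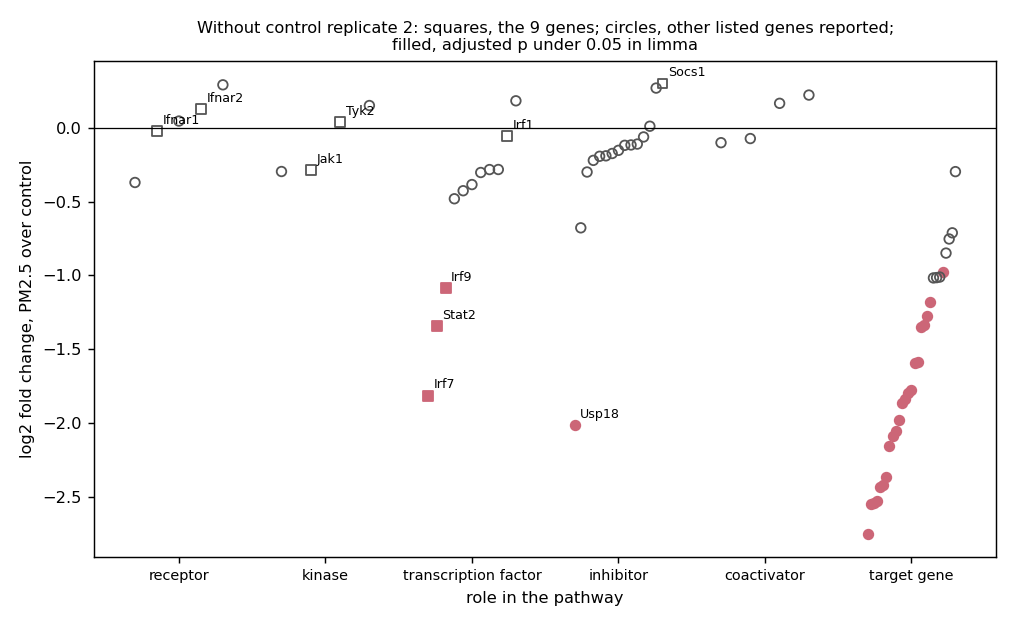
Log2 fold change, PM2.5 over control (vertical axis), without control replicate 2, of the listed genes by role (horizontal axis), with squares for the 9 genes, circles for the other listed genes reported, and filled symbols for an adjusted p-value under 0.05 in limma. The filled symbols are Irf7 (-1.81), Stat2 (-1.35) and Irf9 (-1.09) among the transcription factors, Usp18 (-2.01) among the inhibitors, and 22 of 29 target genes. No symbol is filled among the receptors, the kinases or the group labelled coactivator, which also holds the corepressor genes Irf2bp1 and Irf2bp2.

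Interferon target genes were read from a list of 30 antiviral genes, without regard to whether ISGF3 binds them. The list was written with earlier results of these data known and is no independent evidence of a direction. Of the 30 genes, 29 were tested. Of those, 5 were called lower with 6 libraries and 22 without control replicate 2, and none was called higher in either. Of all genes tested, 0.0589% and 0.707% were called lower in these fits. The median log2 fold change of the 29 targets was -1.60, and -1.77 without control replicate 2. Without control replicate 2, Irf7 (-1.81) lay close to the median of the targets, and Stat2 (-1.35) and Irf9 (-1.09) lay nearer to 0. The genes called with 6 libraries were Ifi44 (log2 fold change -2.54), Ifit3b (-2.43), Rtp4 (-2.30), the GTPase gene Iigp1 (-2.26) and Oasl2 (-2.01), with adjusted p-values of 0.0347 to 0.0426 from limma. Isg15, the ubiquitin-like modifier that USP18 removes, measured 361, 1944 and 302 FPKM in controls and 59.3, 59.3 and 64.3 FPKM in exposed cells. Control replicate 2 was 5.86 times the mean of the other controls for Isg15, the same side as for Stat2 and Irf7. Oas1a, which encodes a sensor of double-stranded RNA, was at 33.9, 23.2 and 30.6 against 8.88, 9.12 and 8.16, with control replicate 2 at 0.719 times the others, the same side as for Irf9. Ifit3, Mx2 and Parp14 were also called without control replicate 2, with log2 fold changes of -2.54, -1.80 and -1.59, against -2.81, -2.20 and -1.30 with 6 libraries, where they were not called. Sequence shared with other genes was high for Oas1a (68.8% of its 31-base sequences), Ifit3 (61.8%) and Ifit3b (55.3%), whose reads are therefore uncertain.

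**Figure D4:**
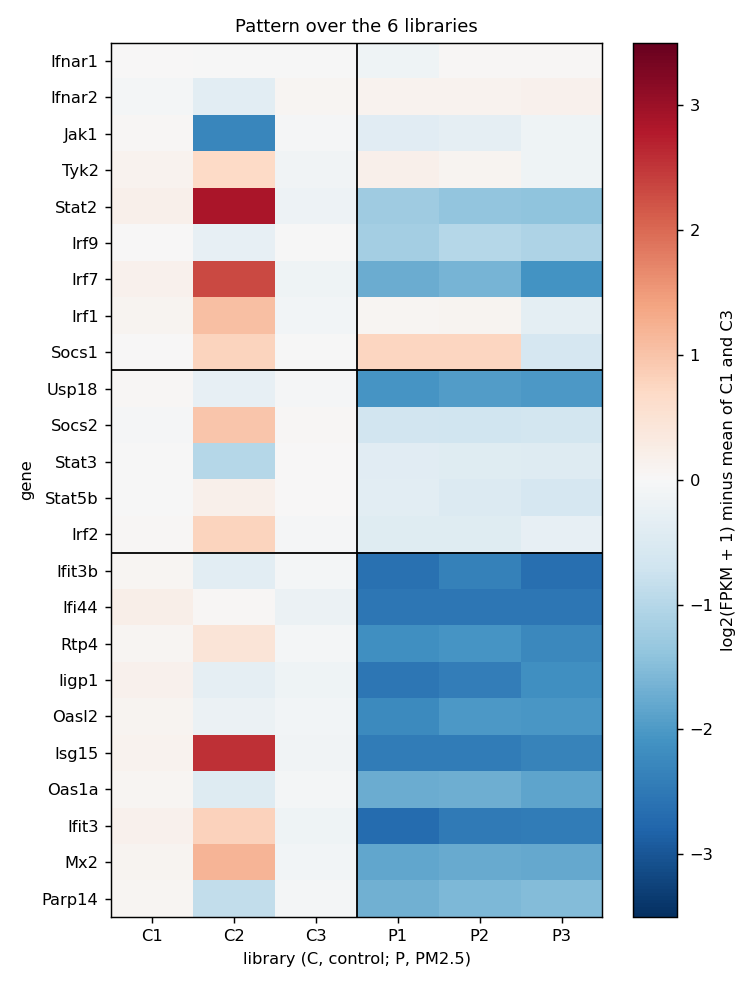
Difference of log2(FPKM + 1) from the mean of control replicates 1 and 3 (colour, blue lower and red higher) for the 9 genes (top block), the named pathway genes (middle) and the named targets (bottom), by library (C, control; P, PM2.5). C2 is at 2.85 for Stat2, 2.30 for Irf7 and 2.55 for Isg15 but at -2.27 for Jak1 and -0.30 for Irf9, and P1 to P3 lie between -2.10 and -0.99 for Stat2, Irf9 and Irf7.

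The position of control replicate 2 differed from member to member. Relative to the mean of control replicates 1 and 3 it was highest for Stat2 (7.48 times) and Irf7 (5.03 times), followed by Socs1 (2.27), Irf1 (2.15) and Tyk2 (1.81). It was near or under 1 for Ifnar1 (0.982), Irf9 (0.802), Ifnar2 (0.746) and Jak1 (0.191). Among all genes tested these ratios stood at the 96.1 percentile for Stat2, 93.3 for Irf7, 43.6 for Irf9 and 6.83 for Jak1. Across 11735 genes, which are not independent replicates, the change in this library had a Spearman's rho of 0.354 with GC content and -0.297 with exon length, as a description. The GC content was 52.6% for Stat2, 56.1% for Irf7, 50.9% for Irf9 and 49.7% for Jak1, against a median of 49.9%. The exon length was 5926, 3776, 5386 and 7227 bases, against a median of 4114. After a correction for both, chosen after the data were seen, the log2 fold changes without control replicate 2 were -1.36 (Stat2), -1.09 (Irf9) and -1.90 (Irf7), with adjusted p-values of 0.00791, 0.00455 and 0.00313 from limma. The same correction over 6 libraries called none of them, at -2.36 (adjusted p = 0.709 in limma) for Stat2, -1.07 (0.0615) for Irf9 and -2.53 (0.333) for Irf7. Without control replicate 2, the corrected fit called 918 of 11735 genes, against 118 of 11884 in the uncorrected fit. The part of the mitochondrial share in the values of this library was not tested. In bulk RNA, fewer cells expressing a gene and less of its RNA per cell cannot be told apart.

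The genes whose log2(FPKM + 1) followed each transcription factor most closely over the 6 libraries were found among all genes tested. For Irf9 they were Endod1 (r = 0.995), Oas1a (0.993) and Ifit3b (0.993), and Oas1a and Ifit3b are on the list of targets. For Irf7 they were Slc4a8, Ndrg2 and Ppp6r2 (each r = 0.996 or 0.997). For Stat2 the closest was the glucose transporter gene Slc2a1 (r = 0.999), followed by 2 entries without an Ensembl identifier, and for Irf1 it was Chrd (0.998), Acvr1b (0.995) and Med24 (0.995). An r of at least 0.99 was reached by 30 genes for Stat2, 13 for Irf7, 28 for Irf1 and 5 for Irf9. These values describe 6 points that share the libraries, and for Stat2, Irf7 and Irf1 control replicate 2 lay far above the other 5.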

How the data were processed

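RNA from 6 libraries of GC-2spd cells was sequenced as paired reads from NEBNext Ultra libraries on an Illumina Novaseq. The authors mapped reads with HISAT2 2.0.5, counted them with featureCounts 1.5.0-p3 and deposited FPKM per gene, with 1 file per library. The submitters' processing notes name the build mm9, and the annotation is not given in the sources used here. Exon lengths of GENCODE M21 (GRCm38) turned 98.0% to 98.1% of values under 50 reads into whole reads (within 0.02), so M21 gave lengths and positions, for 54495 of 54886 genes. The deposited scaling, which followed size factors rather than total reads, was kept.

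Groups and replicate numbers came from the sample titles. Expression was tested with limma 3.58.1 (trend, robust, R 4.3.3, statmod 1.5.0) on log2(FPKM + 1) over 11884 genes averaging 1 FPKM or more, with a threshold of 0.05 on p-values adjusted by Benjamini-Hochberg. The pseudocount understates changes of low genes. The study's own count test was not used, as the files hold no counts. Alternatives were other filters, pseudocounts and scalings, voom, a replicate block, a GC and length correction (splines of 5 degrees of freedom), a fold threshold and leaving out libraries. The code was tested on simulated data. The kit is not described as stranded, so reads of overlapping genes cannot be told apart.

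The members and gene lists were chosen with earlier results of these data known. Other genes named were those of the lists called with 6 libraries and the 5 per list with the smallest p-value without control replicate 2, and the 3 genes most correlated with each transcription factor. Ifnb1, Ifna4, Ifnz, Stat6, Ifngr1, Ifngr2 and genes given at or near 0 were named after their values were seen. Some listed genes count in the totals of their lists but are not reported here by name or drawn. Figures were drawn with matplotlib 3.10.9.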

Additional observations from a re-analysis of the deposited data

How the results depend on the processing

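The number of genes called over the 6 libraries (11) was 0 without a filter, with a mean FPKM of at least 5, with voom and with the replicate block, 1 with a pseudocount of 0.01 and 6 with scaling to total reads, which moved the median of all genes from 0.020 to 0.13 on the log2 scale. At an unadjusted p-value under 0.05 the fits with 0 had 875, 254, 423 and 335 genes. Leaving out 1 library gave 0 to 118 genes, the 118 without control replicate 2, and 0 to 3 of the 9 members. Without control replicate 2, the 118 genes became 41 without a filter, with 0 members, and 918 with the correction for GC content and length. Leaving out 1 more library gave 0 to 5602 genes and 0 to 5 members, the highest without PM2.5 replicate 3. Members whose groups do not overlap numbered 4 to 5 in the alternatives run, while the share of all genes ranged from 4.86% to 19.6% lower and from 8.35% to 17.7% higher, so that a like count is not a like result.

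Whether the replicate numbers pair the libraries could not be decided. With each group's mean subtracted, control and PM2.5 libraries of the same number had an r of -0.285, 0.180 and 0.253 across genes. The outlying control replicate 2 pulled the control mean, so control replicates 1 and 3 departed from it alike. Their r was -0.285 and -0.252 with PM2.5 replicate 1, -0.191 and -0.159 with replicate 2, and 0.292 and 0.253 with replicate 3. With the block 0 members were called, as without it. Stat2, Irf9 and Irf7 were lower in each of 15 alternatives over 6 libraries and 10 without control replicate 2. As their groups did not overlap, other filters, other pseudocounts, the block or fewer libraries could not turn these signs. All alternatives reuse the same libraries, so the tally is no independent evidence. Directions reversed for members that were not called: Ifnar1 with total-read scaling (0.11), and Socs1 with pseudocounts of 0.1 (-0.038) and 0.01 (-0.061) and voom (-0.012). With 1 library left out, the log2 fold change ranged from -0.045 to 0.044 for Ifnar1, -0.29 to 0.86 for Jak1, -0.37 to 0.038 for Tyk2 and -0.19 to 0.48 for Socs1. With 1 more library left out beside control replicate 2 it ranged from -0.053 to 0.036 for Ifnar1, -0.077 to 0.15 for Tyk2 and -0.16 to 0.084 for Irf1, and the correction for GC content and length gave -0.0038 for Tyk2. Apart from the filter and the libraries left out, which change what is tested, the cause was not tested. Fits with a lone control library assume that it varies like the PM2.5 libraries.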

Other observations

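Several regulators that were not called moved with single libraries rather than with the groups, and the following genes were named after their values were seen. Socs3, an inhibitor of cytokine signals, had an FPKM of 5.98, 13.9 and 6.01 in control replicates 1, 2 and 3 and 6.91, 6.94 and 3.33 in PM2.5 replicates 1, 2 and 3. Pias4, a SUMO ligase that restrains STAT proteins, was at 8.25, 22.6 and 9.20 against 14.9, 13.2 and 6.11. The corepressor genes Irf2bp1 and Irf2bp2 had the same order, at 11.8, 18.2 and 12.8 against 20.3, 17.0 and 7.69, and at 9.57, 17.5 and 9.78 against 15.0, 13.5 and 7.35. In each of these, control replicate 2 was the highest control and PM2.5 replicate 3 the lowest PM2.5 library. Of the 9 members this held for Tyk2, Stat2, Irf7, Irf1 and Socs1, 5 of 9 (55.6%), and of all genes tested for 25.5%. Across genes, the deviations of control replicate 2 and PM2.5 replicate 3 from their group means had an r of -0.280, and those of control replicate 2 and PM2.5 replicate 1 an r of 0.276.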
